A study of Mus musculus with 3 samples.

Results

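The 10 genes of the NF-kappaB subunits and their inhibitors were followed in 3 RNA-seq libraries of mouse T helper 1 (Th1) cells. They were chosen by name, and all 10 were found by symbol among the 50600 genes counted. The 5 subunit genes were Nfkb1, Nfkb2, Rel, Rela and Relb. The 5 inhibitor genes were Nfkbia, Nfkbib, Nfkbid, Nfkbie and Tnfaip3. All libraries belong to 1 group, primary Th1 cells of strain C57BL/6NJ with age unknown and sex not collected, and the file headers place them 48 h into a time course of Th1 and Th2 differentiation. The labels number them as biological replicates under 1 shared donor identifier, without naming the animals or cultures behind them, so their spread may be partly technical. With no second group, the data allowed comparisons of genes within a library and of libraries with each other.

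NF-kappaB is a family of dimeric transcription factors that carries signals from the T-cell receptor, CD28 and TNF-family receptors to the genome. In resting cells IkB proteins hold the dimers in the cytoplasm. The IkB kinase complex marks IkB for degradation and so releases them. Several of the family's own genes, Nfkbia and Tnfaip3 among them, are known targets of the factor, which makes induced inhibitors part of its negative feedback. Rela (p65), Rel (c-Rel) and Relb carry transactivation domains, whereas Nfkb1 and Nfkb2 encode precursors that are processed to the DNA-binding partners p50 and p52. In T cells c-Rel is known for its part in Il2 transcription.

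The promoters of 4 members are shown because they belong to the subunit and the inhibitor with the highest mean level (Nfkb2 and Nfkbia) and to the subunits Rel and Rela, both partners of p50, of which Rel stood higher. Each is the stretch of 250 bases before the transcription start in RefSeq on GRCm38.p6, 5′ to 3′ on the gene's strand. Capitals mark every match, on either strand, of a loose form of the kappaB site (GGG, any 5 bases, then CC), with overlapping matches merged.
Nfkb2, chr19:46304487-46304736, plus strand: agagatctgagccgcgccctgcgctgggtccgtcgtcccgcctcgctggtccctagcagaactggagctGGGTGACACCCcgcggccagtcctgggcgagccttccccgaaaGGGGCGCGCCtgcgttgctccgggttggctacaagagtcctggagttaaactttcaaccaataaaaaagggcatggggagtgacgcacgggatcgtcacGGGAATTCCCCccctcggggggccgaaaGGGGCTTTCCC
Rel, chr11:23770970-23771219, minus strand: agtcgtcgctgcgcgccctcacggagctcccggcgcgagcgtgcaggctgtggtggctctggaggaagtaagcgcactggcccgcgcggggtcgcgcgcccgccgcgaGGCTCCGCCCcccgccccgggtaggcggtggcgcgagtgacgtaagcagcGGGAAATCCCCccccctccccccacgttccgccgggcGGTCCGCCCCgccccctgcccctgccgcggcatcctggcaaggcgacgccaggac
Rela, chr19:5637291-5637540, plus strand: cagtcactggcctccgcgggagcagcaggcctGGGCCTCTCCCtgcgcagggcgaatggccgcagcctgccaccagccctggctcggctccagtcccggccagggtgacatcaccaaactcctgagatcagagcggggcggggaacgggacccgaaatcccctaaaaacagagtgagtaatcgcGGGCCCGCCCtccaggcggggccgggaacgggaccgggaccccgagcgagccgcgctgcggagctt
Nfkbia, chr12:55492648-55492897, minus strand: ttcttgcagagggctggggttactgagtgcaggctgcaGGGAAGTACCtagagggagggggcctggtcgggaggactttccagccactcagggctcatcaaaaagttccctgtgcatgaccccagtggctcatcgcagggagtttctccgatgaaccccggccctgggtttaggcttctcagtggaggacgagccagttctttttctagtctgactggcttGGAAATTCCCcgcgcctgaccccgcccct

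RefSeq promoters were matched for 8 of the 10 members, and for 7 of them a full entry, which runs on past the RefSeq start beyond the stretch shown, held the gene's start in the deposited annotation. All 7 held the loose motif, which 45.8% of all 32851 promoter stretches of this length also hold. The stricter kappaB consensus was found in 5 of the 7, those of Nfkb2, Rel, Nfkbia, Nfkbie and Tnfaip3, and in 3.90% of all stretches. In the Nfkbia promoter it read GGAAATTCCC, with its first base 29 bases before the start. In that of Rel it read GGGAAATCCC, 92 bases before the start. Nfkb2 held GGGAATTCCC 39 bases and GGGGCTTTCC 11 bases before the start. The Rel site and the first Nfkb2 site each overlapped another match shifted by 1 base. These letters do not occur in the stretch shown for Rela or in the Nfkbid stretch at the gene's start, but a further Nfkbid promoter entry, at chr7:30422156-30422405, held GGGACTTCCC and GGAATTCCCC. A match is a description of sequence, and binding was not measured.

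Depth differed between the libraries and bears on each value below. Replicates 1, 2 and 3 held 4742025, 50627 and 3543816 fragment counts. A count of 0 allows up to 3 counts, which for Nfkbie would be 0.579, 51.1 and 0.628 TPM. These limits and all intervals below cover counting error only. Replicate 3 also stood apart in where its counts fell. Genes with exons partly or wholly under opposite-strand exons took 52.7%, 57.8% and 72.2% of the counts of replicates 1, 2 and 3. The T cell markers were present, with Cd4 at 251, 154 and 108 TPM and the Th1 regulator Tbx21 at 522, 6 and 255 counts, although the Th1 chemokine receptor Cxcr3 had at most 4 counts. The CD8 gene Cd8a, the B cell genes Ms4a1 and Pax5, and all 3 NK cell markers had no count, while Cd8b1, the other gene of the CD8 list, had 21, 1 and 13. In the myeloid list 5 of 6 genes had no count, and the sixth, Csf1r, had 1096, 10 and 1606 counts with 17.8% of its exonic length under opposite-strand exons. The summed level of the B cell list was 2.32, 0 and 6.77 CPM, and that of the dendritic cell list was 5.27, 0 and 4.23 CPM. In bulk RNA, fewer cells of a type and less RNA per cell cannot be told apart.

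Levels between genes were compared as TPM, counts per exonic length scaled to the same total in each library. Among the subunits the precursor genes had the highest means, and stood highest in replicates 1 and 3. Nfkb2, the precursor of p52 (chromosome 19, 46304737 to 46312090, plus strand, mm10), had 243, 100.4 and 128 TPM in replicates 1, 2 and 3, on 1714, 8 and 828 counts. Nfkb1, the precursor of p50 (chromosome 3, 135584655 to 135691547, minus strand), had 132, 92.4 and 57.7 TPM on 3413, 27 and 1372 counts. Nfkb1 thus had more fragments than Nfkb2 in every library and a lower level per length. Its annotated exons cover 12061 bp against 3289 bp for Nfkb2, each the union over all transcripts. The order of these genes depends on that length. In CPM, which ignores length, Nfkb1 had 720, 533 and 387 and Nfkb2 361, 158 and 234 in replicates 1, 2 and 3.

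Rel was the highest of the subunits with a transactivation domain. Rel, encoding c-Rel (chromosome 11, 23736847 to 23770970, minus strand), had 76.1, 116 and 35.7 TPM on 1217, 21 and 526 counts. Rela, encoding p65 (chromosome 19, 5637483 to 5648130, plus strand), had 29.6, 15.2 and 13.1 TPM, with a single count in replicate 2. Relb, the usual partner of p52 (chromosome 7, 19606217 to 19629438, minus strand), was the lowest of all 10 members in replicates 1 and 3, at 8.90, 10.6 and 5.62 TPM. In replicate 2, where Relb also rested on 1 count, only Nfkbie was listed lower.

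The inhibitors spanned a similar range. Nfkbia, encoding the classical inhibitor IkB alpha (chromosome 12, 55489410 to 55492647, minus strand), had 323, 154 and 165 TPM on 1115, 6 and 525 counts, the highest level of the 10 in each library. It ranked 265th among protein-coding genes in replicate 1 and 394th in replicate 3. Nfkbid, a nuclear IkB protein that binds p50 (chromosome 7, 30421732 to 30428746, plus strand), had 116, 88.0 and 45.6 TPM on 584, 5 and 211 counts.

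The remaining inhibitors stood lower. Nfkbib, encoding IkB beta (chromosome 7, 28758251 to 28767512, minus strand), had 53.0, 19.0 and 28.1 TPM, on 246, 1 and 120 counts. Tnfaip3, encoding the ubiquitin-editing enzyme A20 that restrains signalling upstream of IkB kinase (chromosome 10, 19000910 to 19015657, minus strand), had 32.3, 45.7 and 16.2 TPM on 500, 8 and 231 counts. Nfkbie, encoding IkB epsilon (chromosome 17, 45555716 to 45563169, plus strand), had 42.4 and 17.2 TPM in replicates 1 and 3 on 220 and 82 counts. It had no count in replicate 2, where the limit of 51.1 TPM lay above its level in either deep library.

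**Figure D1:**
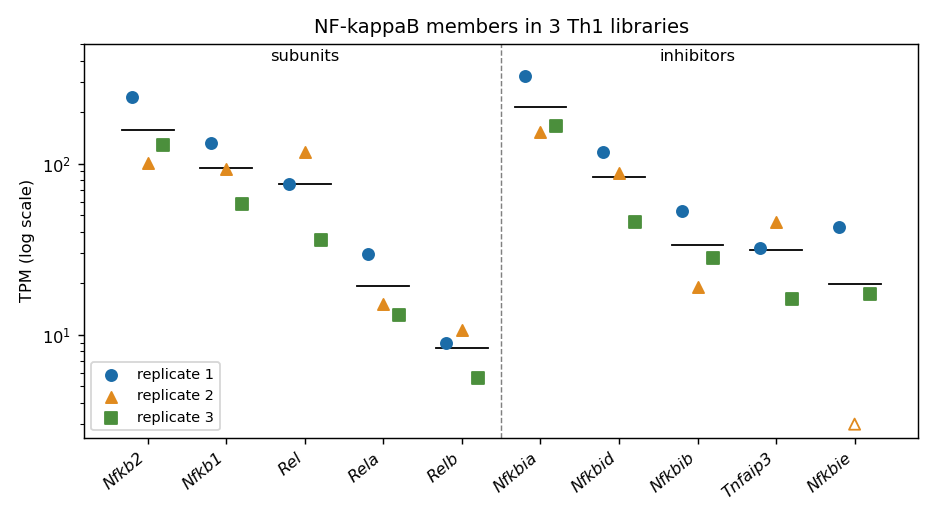
Level of each member in TPM (vertical log axis) in the 3 Th1 libraries, subunits on the left and inhibitors on the right, with the mean as a black line. The open triangle drawn near the bottom of the axis is Nfkbie in replicate 2, which had 0 counts; Nfkbia stands highest at 154 to 323 TPM and Relb is the lowest subunit at 5.62 to 10.6 TPM.

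By mean TPM over the 3 libraries the order was Nfkbia (214 ± 94.7), Nfkb2 (157 ± 75.9), Nfkb1 (94.1 ± 37.3), Nfkbid (83.3 ± 35.6), Rel (76.0 ± 40.2), Nfkbib (33.4 ± 17.6), Tnfaip3 (31.4 ± 14.8), Nfkbie (19.9 ± 21.3), Rela (19.3 ± 8.98) and Relb (8.38 ± 2.55), all as SD with n = 3. The Nfkbie mean takes its missing counts in replicate 2 as 0, and was 8.59 TPM without replicate 1 and 29.8 TPM without replicate 2. Replicate 1 lay above replicate 3 for all 10, by 1.58-fold (Relb) to 2.55-fold (Nfkbid) in TPM. A like shift was seen over all genes. With counts scaled to library totals, the median log2 ratio of replicate 3 to replicate 1 was -0.74 for the members. Over all 11704 genes tested it was -0.70, with 57.5% called lower and 19.3% higher. Neighbours were therefore compared within libraries. In log2(TPM + 1), 4 of the 9 neighbouring pairs had the same order in every library and a mean difference above its SD. Nfkbia was above Nfkb2 by 0.46 ± 0.13, Nfkb2 above Nfkb1 by 0.71 ± 0.53, Nfkb1 above Nfkbid by 0.20 ± 0.13, and Rela above Relb by 1.07 ± 0.57 (SD, n = 3). Replicate 2 adds little to this, with 1 count each of Rela and Relb. From Nfkbid down to Rela no neighbours differed beyond their spread. In that stretch replicate 2 went against both deep libraries, with Rel above Nfkbid and Tnfaip3 above Nfkbib. Tnfaip3 and Rela also stood above Nfkbie in replicate 2 alone, where Nfkbie had no count. In both deep libraries Nfkbie was above Tnfaip3, against the order of the means. Rel was above Nfkbib in every library, by 0.52, 2.55 and 0.34 in replicates 1, 2 and 3, with 1 count of Nfkbib in replicate 2.

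The summed subunits and inhibitors were set against each other within each library. The 5 subunits summed to 490.2, 335 and 239.9 TPM in replicates 1, 2 and 3, and the 5 inhibitors to 567, 307 and 273 TPM. The ratio of subunits to inhibitors was therefore 0.864, 1.09 and 0.880, and the mean log2 ratio of -0.09 ± 0.19 (SD, n = 3) was smaller than its spread. In replicate 2 the sums rested on 58 and 20 counts. Without it the mean log2 ratio was -0.20 ± 0.019 (SD, n = 2), so in both deep libraries the subunits summed to less than the inhibitors. The sign depended on how members were summed. The median subunit was above the median inhibitor, at 76.1 against 53.0 TPM in replicate 1, 92.4 against 45.7 TPM in replicate 2 and 35.7 against 28.1 TPM in replicate 3. The sum of the inhibitors was carried by Nfkbia, which made up 57.0%, 50.2% and 60.7% of it. Without Nfkb2, a setting added after its values were seen, the mean log2 ratio was -0.96.

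The make-up of the subunit pool differed in replicate 2. Nfkb2 supplied 49.7%, 30.0% and 53.2% of subunit TPM in replicates 1, 2 and 3, and Rel 15.5%, 34.7% and 14.9%. Rela supplied 6.03%, 4.54% and 5.45%, and Relb 1.81%, 3.17% and 2.34%. The precursors Nfkb1 and Nfkb2 together were 3.28-fold, 1.36-fold and 3.41-fold above Rel, Rela and Relb together. The deep libraries thus lay close together and the shallow one apart, on 8 counts of Nfkb2 and 21 of Rel.

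**Figure D2:**
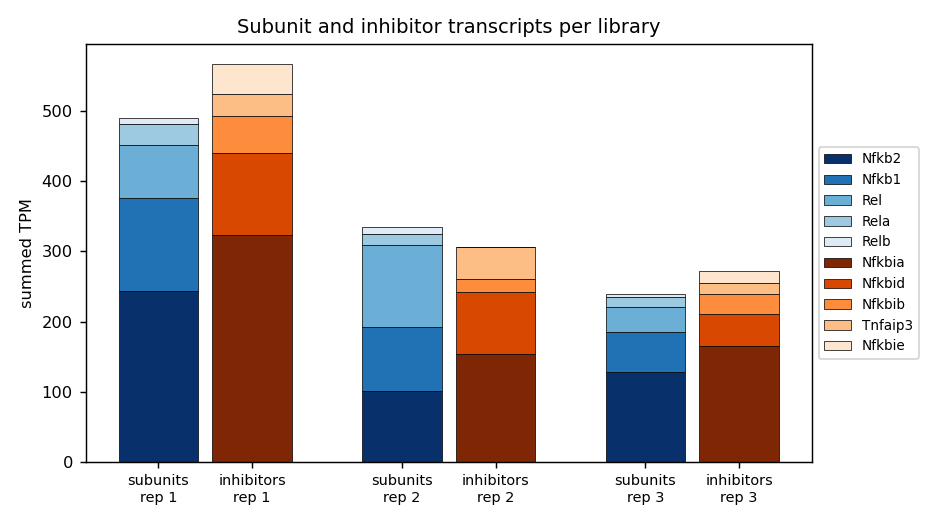
Summed TPM (vertical axis, from 0) of the 5 subunits and the 5 inhibitors in each library, with a coloured segment for each gene. The subunit bar reaches 490.2, 335 and 239.9 TPM in replicates 1, 2 and 3 and the inhibitor bar 567, 307 and 273 TPM, with Nfkb2 the largest subunit segment in replicates 1 and 3.

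Genes whose proteins act together were set against each other in 6 pairs. Nfkb2 was above Relb by 27.4-fold, 9.45-fold and 22.7-fold in replicates 1, 2 and 3, the widest mean gap of the 6. The mean log2 ratio was 4.17 ± 0.82 (SD, n = 3), and the exact 95% counting interval in replicate 2 ran from 0.34 to 8.71. Nfkb1 was above Rela, its partner in the p50 and p65 dimer, by 4.47-fold, 6.08-fold and 4.41-fold (log2 2.30 ± 0.26). Rel was above Rela by 2.57-fold, 7.64-fold and 2.73-fold (log2 1.92 ± 0.88). The gap between the c-Rel and p65 genes was thus close in both deep libraries and wider in replicate 2, where Rela had 1 count.

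Subunits were also set against an inhibitor. Rela was below Nfkbia in each of the 3 libraries. The log2 ratios were -3.45, -3.34 and -3.66 in replicates 1, 2 and 3, with a mean of -3.48 ± 0.16 (SD, n = 3). Rel was above Nfkbie, an inhibitor known to hold c-Rel dimers, by 1.79-fold in replicate 1 and 2.08-fold in replicate 3. In replicate 2, with no count of Nfkbie, Rel was at least 2.27-fold higher if its 21 counts are taken as exact and the limit of 3 counts is set for Nfkbie. Nfkb1 was above Nfkbid by 1.14-fold, 1.05-fold and 1.26-fold, and the exact interval of the log2 ratio was -1.33 to 1.80 in replicate 2. An exact sign-flip permutation test (two-sided) gave p = 0.25 for the 5 pairs with 3 libraries, the smallest p this number allows, and 0.50 for Rel over Nfkbie with 2. After adjustment over the 6 pairs these were 0.30 and 0.50, so the design could not reach 0.05.

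Replicates 3 and 1 were then compared with counting error, since both are deep. With TMM scaling and an exact binomial test over 11704 genes, 6 of 10 members were lower in replicate 3 than in replicate 1 at an adjusted p under 0.05, and none was higher. Over all genes tested 28.3% were lower and 24.2% were higher, 52.6% in all, so these libraries differed widely. Of the 7024 tested genes without opposite-strand exons, 2568 were lower and 413 were higher. Members carry many counts, and among genes with at least 100 counts 38.3% were lower. The median log2 ratio of the 10 members was -0.28, against -0.24 over all genes tested and -0.37 over the 7024 without opposite-strand exons. All 10 members passed the minimum of 20 counts. In the same comparison 7 of 7 T cell markers were lower, at a median of -0.48, while the myeloid marker Csf1r was at 1.43 and the B cell marker Cd79a at 2.02. The other 5 myeloid markers were at 0, and the part of these shifts in the members' values was not tested.

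Nfkbid had the lowest ratio, at -0.59 in log2 (exact 95% interval -0.82 to -0.36, adjusted p = 1.07e-06). It was followed by Nfkbie at -0.54 (-0.92 to -0.17, adjusted p = 0.009) and Nfkb1 at -0.43 (-0.52 to -0.34, adjusted p = 1.37e-20). Rel was at -0.33, Nfkbia at -0.20 and Nfkb2 at -0.17, with adjusted p of 4.38e-05, 0.017 and 0.015. Rela at -0.41 and Tnfaip3 at -0.23 had an adjusted p of 0.077 and 0.078. Nfkbib at -0.15 and Relb at 0.10 had intervals that include 0. Which members were called depended on scaling. With library totals 9 were lower, with DESeq2 size factors 4 were, and with totals over genes without opposite-strand exons only Nfkb1 and Nfkbid were. The median of all genes tested was -0.24 with TMM, -0.14 with DESeq2, -0.70 with library totals and 0.07 with the last scaling. Over all genes DESeq2 size factors gave 25.2% higher and 20.2% lower, library totals 19.3% higher and 57.5% lower, and the last scaling 28.5% higher and 5.70% lower. No member was called higher under any of these.

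**Figure D3:**
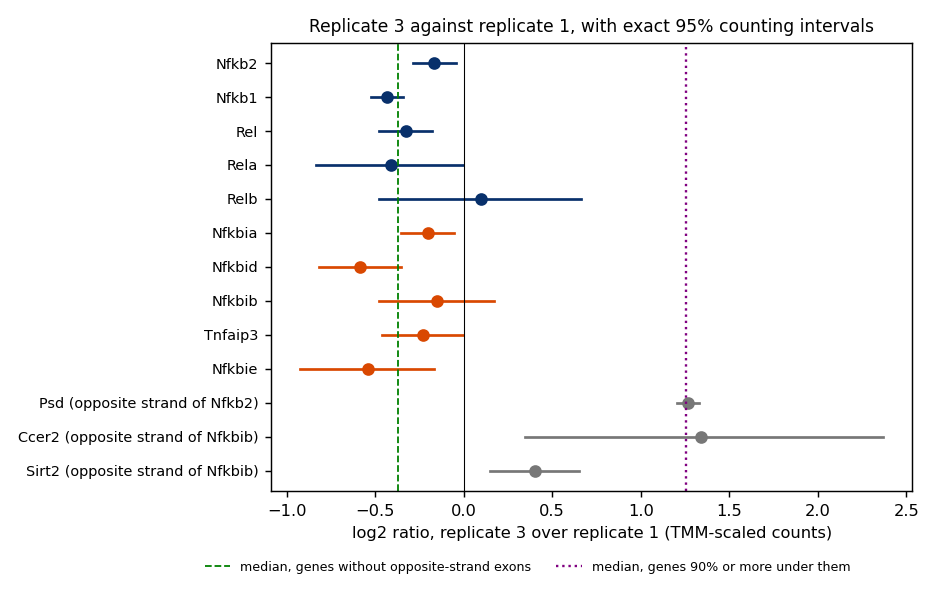
Log2 ratio of replicate 3 over replicate 1 on TMM-scaled counts (horizontal axis) for the 10 members and the 3 genes that share exonic positions with them on the other strand, with exact 95% counting intervals as lines. Members lie between -0.59 and 0.10, near the median of -0.37 for genes without opposite-strand exons (dashed), while Psd at 1.27 lies near the median of 1.25 for genes with 90% or more of their exons under opposite-strand exons (dotted).

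Replicate 2 was set against the sum of replicates 1 and 3. Of 11720 genes 1.45% were called, 0.41% higher and 1.04% lower, and 0 of 10 members were called by the exact binomial test with Benjamini-Hochberg adjustment. The other scalings called none either. By the exact binomial test unadjusted, Nfkb2 (p = 0.0046) and Nfkbia (p = 0.0498) were the 2 members under 0.05, both lower. Their adjusted p by the same test were 0.17 and 0.63. The share of all genes under 0.05 unadjusted was not computed, so these 2 have no background to be set against. At its depth the test could miss large differences. The exact 95% interval of the log2 ratio of Nfkb2 ran from -2.54 to -0.34, that of Rel from -0.08 to 1.23 and that of Relb from -5.20 to 2.62.

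Exons of opposite-strand genes overlap those of 2 members, Nfkb2 and Nfkbib. In the deposited annotation the exons of the other 8 lie clear of the opposite strand's genes. For Nfkbib 16.4% of the exonic length is covered, by Ccer2 (314 bp) and Sirt2 (42 bp). Ccer2 had 16, 0 and 22 counts in replicates 1, 2 and 3, and Sirt2, a deacetylase gene, had 316, 3 and 226. Both were higher in replicate 3 than in replicate 1, by 1.34 and 0.40 in log2 (adjusted exact binomial p = 0.013 and 0.0043), whereas Nfkbib itself was at -0.15.

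Nfkb2 meets Psd, a gene of the minus strand, end to end. Their last exons share 4 bp in the annotation used for counting, or 0.122% of the length of Nfkb2. Psd had 3866, 25 and 5042 counts in replicates 1, 2 and 3, more than the 1714, 8 and 828 of Nfkb2 in every library. Its level per length was 1.90-fold, 2.63-fold and 5.13-fold that of Nfkb2. Psd was higher in replicate 3 than in replicate 1 by 1.27 in log2 (exact 95% interval 1.21 to 1.33), whereas Nfkb2 was at -0.17. In the later GENCODE M21 annotation of the same assembly the last exon of Nfkb2 ends at 46312385, not 46312090, and shares 299 bp with Psd. Counting every opposite-strand gene of M21, 18.1% of the exonic length of Nfkb2 is covered. The tables count fragments on the strand of the first read, and the library kit is not given in the sources used here. Whether this strand setting matches the libraries was not tested, and it bears on the counts of all 10 members. Whether fragments counted for Psd came from Nfkb2 transcripts was not tested either, so the level of Nfkb2 is uncertain.

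**Figure D4:**
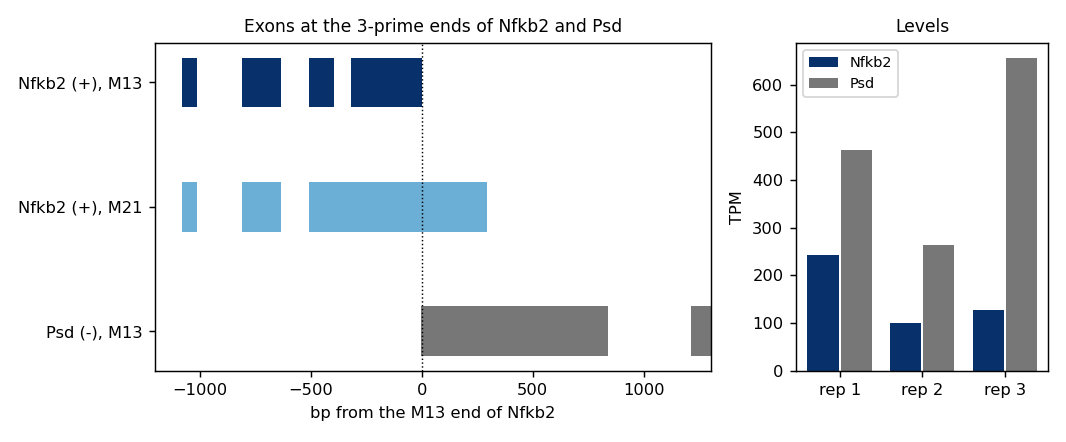
Left, exons of Nfkb2 in GENCODE M13 and M21 and of Psd in M13, by distance in bp from the M13 end of Nfkb2 (horizontal axis); the last exon of Nfkb2 reaches 295 bp farther in M21. Right, TPM of Nfkb2 and Psd in the 3 libraries, where Psd stands above Nfkb2 in each (463, 264 and 655 against 243, 100.4 and 128 TPM).

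Opposite-strand genes within 5000 bp of a member but with no shared exon were also looked at. Pus10 near Rel, Sipa1 near Rela, Sars2 near Nfkbib and Hsp90ab1 near Nfkbie had log2 ratios of replicate 3 to replicate 1 between -0.34 and -0.14. Hcst, 1877 bp from Nfkbid, was at 1.12 on 34, 0 and 40 counts.

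Other genes of the pathway were described from lists. The 15 kinases and adaptors, which include subunits of IkB kinase, were below the members by list median. Their list medians were 17.9, 16.9 and 7.73 TPM in replicates 1, 2 and 3, against 64.6, 66.9 and 31.9 TPM for the 10 members. Single genes overlapped, with a mean of up to 52.4 TPM in this list and down to 8.38 TPM among the members. Of these 15 genes 6 were lower in replicate 3 than in replicate 1, 1 was higher and 8 were not called. Over all genes 28.3% were lower and 24.2% higher, and 38.3% were lower among those with at least 100 counts. Without opposite-strand exons 2568 of 7024 genes were lower and 413 higher. The highest by mean TPM were Ikbkg, the regulatory subunit NEMO of IkB kinase (52.4 ± 17.5 TPM), Malt1, a paracaspase of T-cell receptor signalling (39.2 ± 17.5 TPM), both as SD with n = 3, and Prkcq, a kinase that acts upstream of it, at 27.0, 35.0 and 11.4 TPM. The order by mean did not hold in each library. In replicate 1 Malt1 (49.8 TPM) and Map3k7 (37.4 TPM) stood above Ikbkg (36.7 TPM). Map3k7 was also above Prkcq in both deep libraries, at 37.4 and 15.0 TPM in replicates 1 and 3. Malt1 and Prkcq were lower in replicate 3 than in replicate 1, with log2 ratios of -0.63 and -0.48.

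Ikbkg was the gene called higher. It had 36.7, 71.3 and 49.2 TPM on 638, 14 and 786 counts, and its log2 ratio of replicate 3 to replicate 1 was 1.18 (exact 95% interval 1.03 to 1.34). It shares 418 bp, 5.15% of its exonic length, with exons of G6pdx on the other strand. G6pdx had 368, 2 and 171 counts and a log2 ratio of -0.22. Whether fragments counted for Ikbkg came from the other strand was not tested, so the level of Ikbkg is uncertain. The catalytic subunits of the same complex, Chuk and Ikbkb, share no opposite-strand exon and had ratios of -0.51 and -0.27, the first called lower.

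Among 12 ubiquitin enzymes and A20 partners 7 were lower in replicate 3 and none was higher. These stand beside the same shares over all genes and the same counts over genes without opposite-strand exons. Otulin, a deubiquitinase of linear chains, led them at 107 ± 58.9 TPM, followed by Tnip1, an A20-binding protein, at 33.6 ± 16.0 TPM and Rbck1, a subunit of the linear ubiquitin ligase, at 25.1 ± 12.9 TPM. The other IkB family genes were low. Nfkbiz had 10.9, 8.23 and 6.57 TPM and Bcl3 4.72, 0 and 3.07 TPM, both far below Nfkbid, and neither was called.

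Known target genes stood above the kinases and adaptors by list median, at 102, 64.2 and 43.8 TPM. Of 20, 17 were lower in replicate 3, against 28.3% of all genes tested and 38.3% of those with at least 100 counts. Among genes without opposite-strand exons 2568 of 7024 were lower. The list median was -0.48 in log2, the same as that of the T cell markers. The highest by mean TPM were Il2 (681 ± 286 TPM), the cytokine gene Lta (482 ± 208 TPM) and the chemokine gene Ccl4 at 191, 688 and 81.5 TPM, on 270, 11 and 106 counts. Replicate 2 raised the mean of Ccl4, and was called higher than replicates 1 and 3 (log2 1.89, adjusted exact binomial p = 0.025). In replicates 1 and 3 Ccl3 (363 and 148 TPM) and Myc (233 and 109 TPM) stood above Ccl4. With totals over genes without opposite-strand exons 5 of the 20 were lower (5.70% of all genes), Cd83, Il2, Irf1, Irf4 and Lta, and 2 of the 15 kinases and adaptors, Malt1 and Tab2. Under that scaling Ikbkg and Traf3 were higher and none of the ubiquitin enzymes and A20 partners was called.

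Besides Ikbkg, whose partner G6pdx had the lower ratio, 4 genes of the lists overlap an opposite-strand gene. Exons of Irf1, Icam1, Tax1bp1 and Bcl3 are partly covered by Gm17334, Gm47079, Gm43966 and Gm16175, in that order. These partners had log2 ratios of replicate 3 to replicate 1 of 1.19, 1.29, 1.42 and 1.49, each called higher. Irf1, Icam1, Tax1bp1 and Bcl3 themselves were at -0.57, -0.33, -0.41 and 0.15. In each library where both had counts the partner had the higher count per length, by 4.38-fold to 55.9-fold.

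**Figure D5:**
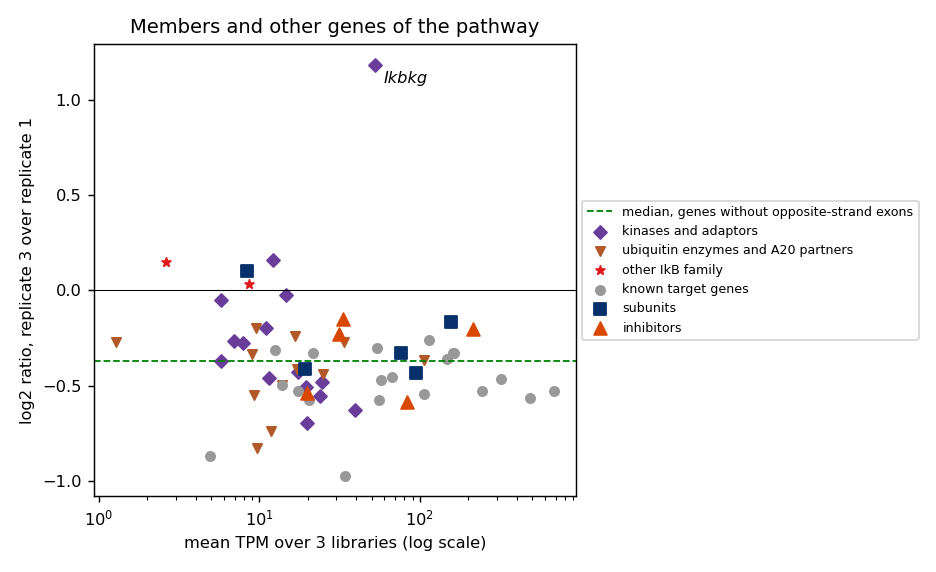
Log2 ratio of replicate 3 over replicate 1 (vertical axis) against mean TPM over the 3 libraries (horizontal log axis) for subunits, inhibitors and the 4 pathway lists. Most genes lie near the dashed median of -0.37 for genes without opposite-strand exons, and Ikbkg stands apart at 1.18.

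The genes nearest to the leading members in level over the 3 libraries were found among protein-coding genes by distance in log2(TPM + 1). Nearest to Nfkb2 were Hspe1, Cox6a1 and Spn, at distances of 0.25, 0.26 and 0.27. Nearest to Nfkbia were Rpl10a, Rps27l and Coro1a, at 0.21, 0.25 and 0.27. Rpl10a, for example, had 357, 141 and 155 TPM in replicates 1, 2 and 3. The distance weighs replicate 2 like the deep libraries. There Hspe1, Cox6a1 and Spn had 4, 2 and 10 counts, and Rpl10a, Rps27l and Coro1a had 8, 3 and 11. Which genes came out nearest thus rests in part on few counts. With 3 libraries of 1 group this likeness is one of level.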

How the data were processed

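Fragment counts per gene of 3 Th1 libraries were analysed as 1 group, with replicate numbers from the labels. The deposited counts are whole numbers, made per the file headers with featureCounts 1.4.6-p4 (read pairs with both ends mapped, exons summed by gene, strand setting 1) on GENCODE M13 and, per the labels, mm10. The deposited tables also hold another value, exonic length in bp, the union over all transcripts, from which TPM was computed here. The labels name total RNA, while the linked library protocol is named for poly(A)+ RNA. The sources used here do not give the kit or aligner version.

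Symbols were matched for 50376 of 50600 identifiers. Libraries were compared by an exact two-sided binomial test on scaled totals (TMM from edgeR 4.0.16; DESeq2 1.42.0 size factors as an alternative) over genes with at least 20 counts, with Benjamini-Hochberg adjustment at 0.05. These tests compare libraries with counting error, not conditions. On simulated counts for replicates 3 and 1 (11741 genes) the test called 82.0% of genes changed 2-fold, 99.0% of those changed 4-fold and 0.035% of unchanged ones. The simulated counts held counting error only (Poisson), with the same TMM-scaled totals that the test used. The low share of unchanged genes called was therefore set by the design. It says nothing of calls that arise from scaling or from other differences between the real libraries. Ratios of gene pairs have exact Clopper-Pearson 95% intervals. edgeR's quasi-likelihood test needs 2 groups and was not run. Overlap was computed from exons in the deposited tables, and biotypes came from GENCODE M21. Named genes were all members, their opposite-strand partners, the 3 highest of each pathway list by mean TPM, and the 3 nearest in level to Nfkb2 and Nfkbia. Genes named for their call, overlap or level were chosen after their values were seen. These were Chuk, Ikbkb, Map3k7, Tab2, Traf3, Ccl3, Myc, Cd83, Irf1, Irf4, Icam1, Tax1bp1 and neighbours within 5000 bp. The members and lists were chosen with earlier results of these data known. R 4.3.3 and Python 3.11.15 were used.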

Additional observations from a re-analysis of the deposited data

How the results depend on the processing

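The log2 ratio of summed subunits to inhibitors (-0.09) changed sign with the median of log2(TPM + 1) (0.62), with CPM (1.37), with members under 10% opposite-strand overlap (0.041) and without Tnfaip3 (0.046), and was -0.96 without Nfkb2. CPM ignores gene length, and Nfkb1 is long. The cause was not tested for any of these changes, that with CPM included. Without a replicate it was -0.20 to -0.03. All 6 gene pairs kept their direction under the pseudocount, CPM and leave-one-out settings. Of the members, 6 were lower in replicate 3 than in replicate 1, and 2 with totals over genes without opposite-strand exons; over all genes 3314 were lower, 6731 with library totals and 667 with that scaling. For replicate 2 against the others, 48 genes were higher and 122 lower; library totals gave 89 and 33, totals over genes without opposite-strand exons gave 50 lower, and there were 88 higher and 565 lower without replicate 1, and 83 higher and 44 lower without replicate 3. No member was called there under any setting. The mean of Nfkbie was 8.59 to 29.8 TPM without a replicate (19.9 over all 3). Both members with opposite-strand exons kept them under protein-coding exons and under M21 exons; the M21 exons and the omission of Nfkb2 were added after seeing the data. FPKM ratios equal TPM ratios and were not run. Replicate 2 limits every statement about single members, since 4 had at most 1 count there. No paired analysis was possible because there is 1 group.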
